A study of Mus musculus with 6 samples.

Results

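The genes described here encode the carriers and channels known to move cyclic dinucleotides across membranes. The 9 members, *Slc19a1*, *Slc46a1*, *Slc46a3*, *Lrrc8a*, *Lrrc8b*, *Lrrc8c*, *Lrrc8d*, *Lrrc8e* and *Abcc1*, were chosen by name from this known role. Their values were not a criterion, but earlier results of these data were known at the time. All 9 appear among the 19831 genes of the deposited table, and the mean over both genotypes was 10 normalized counts or more for each. The tissue was inguinal adipose tissue (iAT), the subcutaneous fat depot of the groin, taken from mice at postnatal day 6. RNA from whole tissue of 3 wild-type (WT) and 3 Npffr1-KO samples was sequenced. Npffr1-KO mice lack *Npffr1*, which encodes a receptor for neuropeptide FF. The labels give genotype, tissue, age and housing free of specific pathogens for both groups, and they give neither sex, strain, the way the allele was made, nor any treatment. The comparison asks how the routes by which cyclic dinucleotides cross membranes were expressed in young iAT with and without this receptor.

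cGAMP is a cyclic dinucleotide that the enzyme cGAS makes when it meets DNA in the cytosol, and it switches on the interferon response by binding STING. Because cGAMP is charged, it crosses membranes mainly through proteins: SLC19A1 (the reduced folate carrier) and the SLC46 family import it, volume-regulated anion channels built of LRRC8 subunits let it pass in either direction, and ABCC1 exports it. Fat tissue holds adipocytes, macrophages, endothelial cells and other cells that can share the ligand by these routes.

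The table holds 1 value per genotype and gene, in counts normalized for library size. The values of each genotype sum to 23137343 in WT and 23640005 in Npffr1-KO over all genes. The ratio of the genotype values is moderated, meaning that it is drawn towards 1 where reads are few, and the mean of both values equals the average over the 6 libraries. Among 585 genes with a single read, the log2 ratio was at most 0.074 in size. For genes with a mean of up to 100, the whole reads of each library could be worked out from the table, uniquely for 7508 of 7612 genes. The libraries so found are called A, B and C within each genotype, and they could not be matched to sample numbers. *Npffr1* itself had 1, 0 and 5 reads in WT libraries A, B and C and 0 reads in each Npffr1-KO library, where a total of 0 still allows up to 3 reads. These counts are too low to check the labels. Npffr1-KO library C had the lowest size factor, 0.916 against 0.991 to 1.04 in the others, and its median level over the gene mean was 0.902 against 0.977 to 1.03.

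Markers of adipocytes were abundant, with a summed value of 250546 normalized counts in WT and 274043 in Npffr1-KO over 6 genes. Of these only *Lep*, which encodes leptin, differed by at least 1.2-fold, with 4210 and 8703, while *Adipoq* had 37027 and 35360. Of the 3 keratinocyte markers, *Krt5* and *Krt14* were at 5.10 and 2.84 in WT and *Krt10* was at 79.4, with 72.4 in Npffr1-KO. Of all genes with a mean of at least 10, 16.8% were at least 1.2-fold higher in Npffr1-KO and 15.6% were lower. Markers of several cell types passed this fold. All 5 thermogenic markers were higher in Npffr1-KO (summed value 1365 in WT and 4554 in Npffr1-KO). For *Dio2*, with a log2 ratio of 0.29, a 95% interval from counting error alone was -0.14 to 0.73. Also higher were 3 of 5 lymphocyte markers (7851 and 9811) and the 4 skeletal muscle markers with a mean of at least 10. Summed over all 5, the muscle markers had 305 and 633, with *Myh4* near 0 in both. In the other direction, 3 of 4 endothelial markers (55582 and 44253) and 3 of 3 Schwann cell markers (34544 and 24886) were lower in Npffr1-KO. Of 6 macrophage markers, 2 were higher and 1 was lower (11731 and 12275). Of 4 progenitor and mural markers, 0 were higher and 1 was lower. Of 3 erythroid markers, 0 passed in either direction. The part of these shifts in the values of the carriers and channels was not tested. In whole tissue, fewer cells of a type and less RNA per cell cannot be told apart.

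The carriers and channels covered a wide range of levels, compared here as normalized counts per kilobase of gene length. In WT the highest was *Lrrc8d* with 364 per kilobase, a level above that of 74.6% of listed genes, and the lowest was *Lrrc8e* with 6.29, above 23.3%. The ratio of these levels was 57.8. Between them stood, in falling order, *Lrrc8a* with 328, *Slc19a1* with 303, *Lrrc8c* with 191, *Abcc1* with 185, *Slc46a3* with 146, *Slc46a1* with 120 and *Lrrc8b* with 34.9 per kilobase. Of the 8 pairs of neighbours in this order, only *Lrrc8c* and *Abcc1* could not be separated by counting error, with a ratio of levels of 1.03 and a 95% counting interval of 0.97 to 1.09. Such intervals treat reads as independent and cover counting error only, not the spread between samples. They were computed from the moderated genotype values, here and below. In Npffr1-KO the order was the same but for the highest 3, where *Slc19a1* with 325 per kilobase stood above *Lrrc8d* with 304 and *Lrrc8a* with 273.

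**Figure D1:**
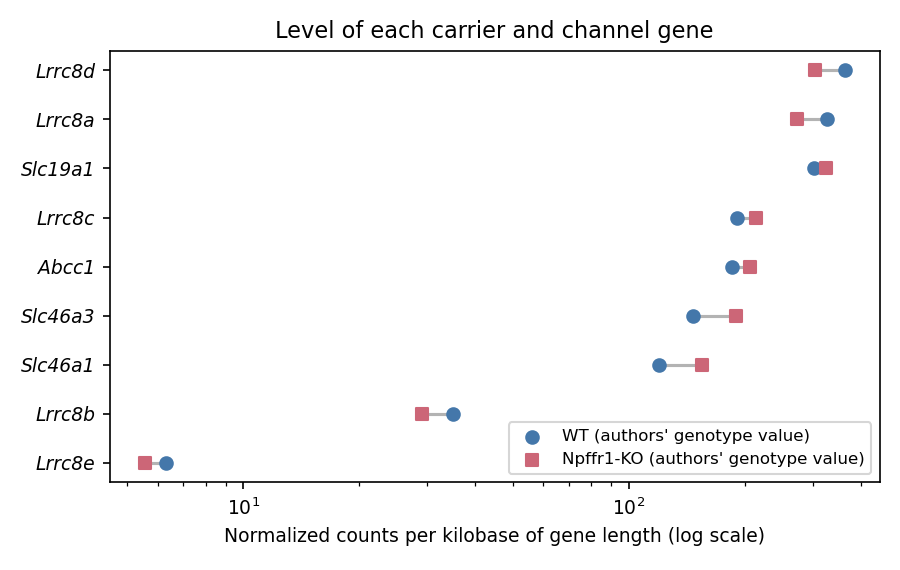
Level of each carrier and channel gene in WT (circles) and Npffr1-KO (squares), as the authors' value per genotype divided by gene length, in normalized counts per kilobase on a log axis. *Lrrc8d*, *Lrrc8a* and *Slc19a1* sit between 273 and 364 in both genotypes, and *Lrrc8e* sits at 6.29 and 5.55.

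*Slc19a1* (Entrez 20509), the reduced folate carrier and an importer of cGAMP, was the most abundant importer of the group per kilobase. Its WT level of 303 was 2.54 times that of *Slc46a1* and 2.07 times that of *Slc46a3*. Its value was 689 normalized counts in WT and 739 in Npffr1-KO. The log2 ratio of Npffr1-KO over WT was 0.10 with a 95% counting interval of 0.02 to 0.19, below a 1.2-fold difference, which is 0.263 on this scale.

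The SLC46 carriers differed more between the genotypes than *Slc19a1* did. *Slc46a1* (Entrez 52466) encodes the proton-coupled folate transporter of the gut, and it had 238 normalized counts in WT and 308 in Npffr1-KO, a value 29.3% higher. *Slc46a3* (Entrez 71706), which encodes a lysosomal carrier, had 355 and 460, a value 29.6% higher. Their log2 ratios were 0.37 (counting interval 0.23 to 0.51) and 0.37 (0.26 to 0.49). The log2 ratio of *Slc46a1* exceeded that of *Slc19a1* by 0.27 (0.10 to 0.43), and that of *Slc46a3* did so by 0.27 (0.13 to 0.41). These were the members highest in Npffr1-KO relative to WT, and their log2 ratios stood above those of 91.0% and 91.1% of genes. Neither gene had a value per library. For *Slc46a1*, 1 combination of whole reads with an SD of up to 0.2 of the mean gave the listed mean, but 110 did with an SD of up to 0.5 of the mean. The spread between samples is therefore unknown, and no test was made.

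The LRRC8 subunits divided by direction. *Lrrc8a* (Entrez 241296) encodes the subunit that every volume-regulated anion channel needs, and it had 1394 normalized counts in WT and 1162 in Npffr1-KO, with a log2 ratio of -0.26 (-0.33 to -0.20). *Lrrc8d* (Entrez 231549), whose product makes the channel pass larger and uncharged solutes, had 1433 and 1198, also at -0.26 (-0.32 to -0.20). *Lrrc8c* (Entrez 100604), whose product forms cGAMP-conducting channels with LRRC8A, went the other way with 539 and 607, at 0.17 (0.07 to 0.27). The log2 ratio of *Lrrc8c* exceeded that of *Lrrc8a* by 0.43 (0.32 to 0.55), that of *Lrrc8d* by 0.43 (0.31 to 0.55) and that of *Lrrc8b* by 0.43 (0.17 to 0.69). Against *Lrrc8e* the interval of the difference, -0.14 to 0.84, included 0. *Lrrc8a* and *Lrrc8d* differed from each other by 0.0042, with an interval of -0.09 to 0.10.

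In the genotype values the make-up of the summed *Lrrc8* level per kilobase differed, with a sum of 923 in WT and 826 in Npffr1-KO. The spread of this sum and of its shares between samples is unknown. The share of *Lrrc8c* in that sum was 20.6% in WT and 26.0% in Npffr1-KO. The share of *Lrrc8d* was 39.4% and 36.8%, and that of *Lrrc8a* was 35.5% and 33.0%. *Lrrc8b* gave 3.78% and 3.53%, and *Lrrc8e*, whose product also forms cGAMP-conducting channels, gave 0.681% and 0.672%. The shares are of transcript level per length and say nothing of the subunits in assembled channels. The value of *Lrrc8a* is uncertain, since 67.6% of the 31-base sequences of its GENCODE transcripts also occur in other genes and 66.2% of its exonic bases overlap exons of other genes on the same strand, with *Gm28035* as the main partner. *Gm28035* has no row in the table. For the other 8 members the shared sequence was at most 5.73%, in *Lrrc8d*.

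*Lrrc8b* (Entrez 433926) was 1 of the 2 members with reads per library. It had 79.2, 124 and 97.3 normalized reads in WT libraries A, B and C and 80.0, 112 and 53.5 in Npffr1-KO libraries A, B and C. The groups overlapped, and the lowest value was that of Npffr1-KO library C, whose median level over the genes fitted was the lowest. The means were 100.3 ± 22.7 (SD, n = 3) in WT and 81.8 ± 29.3 (SD, n = 3) in Npffr1-KO. The difference on the log2 scale, with 1 added to each normalized read count, was -0.33 with a standard error of 0.27, and limma gave an adjusted p of 0.667 over the 2986 genes fitted. Without Npffr1-KO library C the Npffr1-KO mean was 96.0 and the difference was -0.058. With each library left out in turn, the difference ran from -0.58 (without Npffr1-KO library B) to -0.058.

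*Lrrc8e* (Entrez 72267) had 16.4, 32.3 and 25.8 normalized reads in WT libraries A, B and C and 28.9, 21.2 and 13.1 in Npffr1-KO libraries A, B and C. The groups overlapped here too, and library C was again the lowest. The means were 24.8 ± 7.99 (SD, n = 3) and 21.1 ± 7.91 (SD, n = 3). The log2 difference was -0.24 with a standard error of 0.39, with an adjusted p of 0.854 from limma. Without Npffr1-KO library C the Npffr1-KO mean was 25.1, slightly above WT, and the log2 difference was 0.046. With each library left out in turn, the difference ran from -0.50 (without WT library A) to 0.046. Neither gene passed the test, and 0% of the 2986 genes did at an adjusted p under 0.05 in limma, while 363 had an unadjusted p under 0.05. These are only genes with a mean of 10 to 100 whose reads were recovered. Genes of higher level, the other members among them, were not tested. On simulated reads the same fit found 39 of 104 genes given a log2 change of 1, which is 37.5%, with 6 false calls in all. The spread of the simulated reads was a fixed setting, not estimated from these libraries, so this share can differ in the data. The differences of *Lrrc8b* and *Lrrc8e* were smaller than a log2 change of 1, so the lack of a call does not show that they were unchanged. Groups that did not overlap were found for 17.3% of the 2986 genes and for neither member.

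**Figure D2:**
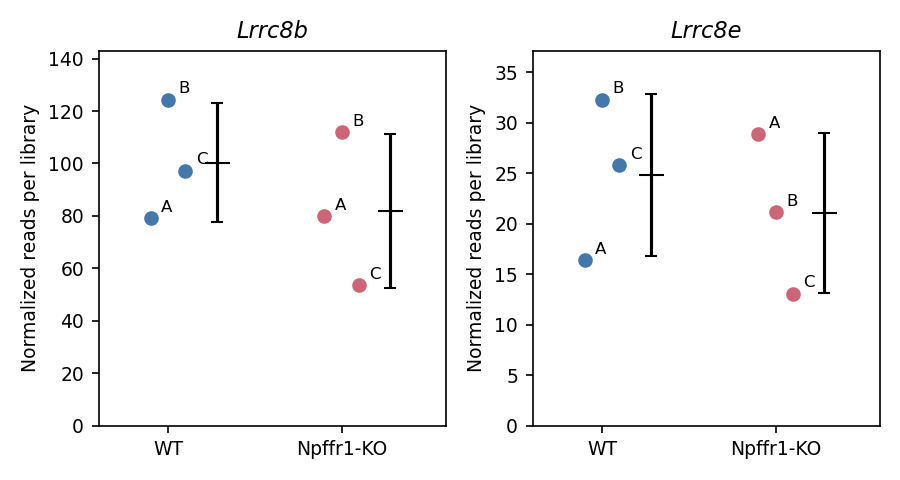
Normalized reads of *Lrrc8b* and *Lrrc8e* in each library (points, lettered A to C within a genotype), with the mean and SD of each genotype (black). The letters do not pair libraries across genotypes. The WT and Npffr1-KO points overlap for both genes, and Npffr1-KO library C is the lowest point at 53.5 and 13.1.

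*Abcc1* (Entrez 17250) encodes the exporter of the group, a pump also known for glutathione conjugates and leukotrienes. It had 1103 normalized counts in WT and 1228 in Npffr1-KO, with a log2 ratio of 0.16 (0.09 to 0.22). Of the 7 other *Abcc* genes with a mean of at least 10, 5 were at least 1.2-fold lower in Npffr1-KO and 0 were higher, against 15.6% and 16.8% of all genes. The 2 that did not pass were *Abcc4* and *Abcc12*. The log2 ratios of the 7 genes ran from -0.93 to -0.07, with a median of -0.33 that was -0.23 after centring on genes of like length. With that centring *Abcc3* (-0.24), *Abcc9* (-0.23) and *Abcc10* (-0.21) also fell short of the threshold. *Abcc5* (-0.27) and *Abcc6* (-0.83) stayed past it. *Abcc5*, which encodes an exporter of cyclic nucleotides, had 2085 in WT and 1657 in Npffr1-KO, and *Abcc4*, another such exporter, had 330 and 300 (log2 ratio -0.14). *Abcc9*, which encodes a subunit of a potassium channel, had 4721 and 3679. The low *Abcc6*, the gene at -0.93 in the moderated ratios, had 9, 30 and 14 reads in WT and 1, 12 and 1 reads in Npffr1-KO, which overlap. Over these reads, rather than the moderated values, its log2 difference was -2.12 (standard error 0.93), with an adjusted p of 0.376 from limma.

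Across the 9 members, 2 (*Slc46a1* and *Slc46a3*) were at least 1.2-fold higher in Npffr1-KO, against 16.8% of 15309 genes whose mean reached 10. Only *Lrrc8a* was at least 1.2-fold lower, against 15.6% of genes, and *Lrrc8b* and *Lrrc8d* lay just short of this at -0.26. This count uses the moderated ratios, and the log2 ratio of the mean reads recovered for *Lrrc8b*, -0.29, was past the threshold. With all ratios centred on the median gene, which moved them by 0.0082, *Lrrc8b* and *Lrrc8d* crossed the threshold, giving 2 higher and 3 lower. Without a threshold, 5 members were higher and 4 were lower. The counting interval, which covers counting error only, left out 0 for 8 members, with *Lrrc8e* the exception at -0.66 to 0.30. The share of all genes for which it does so was not computed, so the count of 8 cannot be read as particular to the members. *Lrrc8b* was among the 8 (-0.50 to -0.02), although its libraries overlapped and limma gave it an adjusted p of 0.667. The median log2 ratio of the members was 0.10 and that of all genes was 0.0082, and the median size of the log2 ratio over all genes was 0.18. For 7 of the 9 members there is 1 value per genotype, so whether these differences exceed the spread between samples could not be tested.

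**Figure D3:**
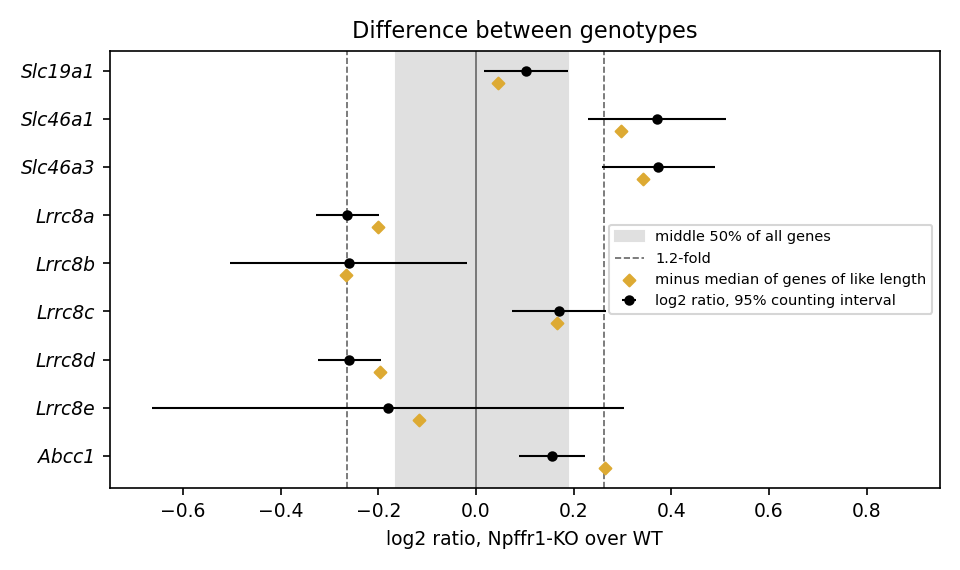
Log2 ratio of Npffr1-KO over WT for each member (circles) with its 95% counting interval, and the same ratio minus the median of genes of like length (diamonds). The grey band holds the middle 50% of all genes, from -0.16 to 0.19, and dashed lines mark 1.2-fold. *Slc46a1* and *Slc46a3* lie to the right of the upper line at 0.37, and *Lrrc8a*, *Lrrc8b* and *Lrrc8d* lie at the lower line.

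The ratios moved with gene length over the whole table. The median log2 ratio was 0.19 in the fifth of genes with the shortest length (up to 1557 bases) and -0.12 in the fifth with the greatest length. Members followed the same order in part. Of the 5 members of at most 3000 bases 4 were higher in Npffr1-KO, and of the 4 longer members 3 were lower. After centring on genes of like length, *Slc46a1* was at 0.30 and *Slc46a3* at 0.34, *Lrrc8a* and *Lrrc8d* were both at -0.20, and *Lrrc8b* at -0.27. *Abcc1*, a long gene of 5959 bases, went from 0.16 to 0.26 and so just passed the 1.2-fold threshold, while *Slc19a1* went from 0.10 to 0.05. *Lrrc8b* and *Lrrc8c*, with 2841 and 2829 bases, belong to the same length class and kept opposite signs. With this centring 3 members were higher and 1, *Lrrc8b*, was lower by at least 1.2-fold, while *Lrrc8a* fell short of it.

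**Figure D4:**
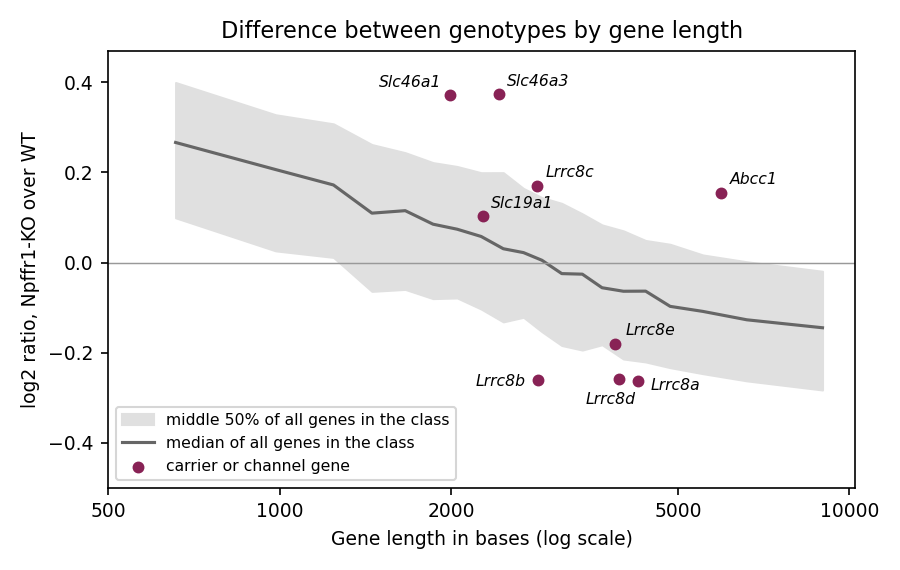
Log2 ratio of Npffr1-KO over WT against gene length in bases on a log axis. The line is the median and the band the middle 50% of all genes in each of 20 length classes, and points are the members. *Abcc1* lies above the band of long genes, and *Lrrc8b* lies below the band of genes of like length.

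*Lrrc8b*, *Lrrc8c* and *Lrrc8d* are neighbours on chromosome 5 in the RefSeq annotation, on the same strand. Their start regions are shown because neighbours in 1 cluster had opposite signs, and those of the carriers *Slc46a1* and *Slc46a3* because these had like ratios. The 250 bases before each start are from RefSeq on build GRCm38.p6, read 5' to 3' on the strand of the gene. Capitals mark GC boxes (GGGCGG, either strand). The windows are chr11:78465451-78465700 (plus strand) for *Slc46a1*, chr5:147894816-147895065 (minus strand) for *Slc46a3*, chr5:105415525-105415774 (plus strand) for *Lrrc8b*, chr5:105519221-105519470 (plus strand) for *Lrrc8c* and chr5:105699719-105699968 (plus strand) for *Lrrc8d*.
Slc46a1: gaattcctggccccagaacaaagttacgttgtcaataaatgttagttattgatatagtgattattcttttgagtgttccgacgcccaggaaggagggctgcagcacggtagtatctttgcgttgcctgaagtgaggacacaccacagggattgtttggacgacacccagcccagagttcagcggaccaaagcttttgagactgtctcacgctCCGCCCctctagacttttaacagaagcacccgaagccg
Slc46a3: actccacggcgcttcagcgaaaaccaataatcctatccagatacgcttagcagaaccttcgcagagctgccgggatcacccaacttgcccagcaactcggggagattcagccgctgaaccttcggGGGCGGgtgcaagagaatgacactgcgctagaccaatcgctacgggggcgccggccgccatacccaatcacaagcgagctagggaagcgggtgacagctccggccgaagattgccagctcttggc
Lrrc8b: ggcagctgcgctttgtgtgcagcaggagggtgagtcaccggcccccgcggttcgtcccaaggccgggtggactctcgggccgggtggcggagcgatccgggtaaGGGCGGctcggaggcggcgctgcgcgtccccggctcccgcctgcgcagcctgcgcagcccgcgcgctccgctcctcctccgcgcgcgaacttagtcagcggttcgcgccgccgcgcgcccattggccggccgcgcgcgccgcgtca
Lrrc8c: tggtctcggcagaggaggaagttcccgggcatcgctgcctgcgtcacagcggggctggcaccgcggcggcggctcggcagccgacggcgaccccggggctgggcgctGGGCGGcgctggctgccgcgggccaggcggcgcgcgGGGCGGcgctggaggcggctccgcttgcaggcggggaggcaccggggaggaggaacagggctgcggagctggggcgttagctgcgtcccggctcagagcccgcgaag
Lrrc8d: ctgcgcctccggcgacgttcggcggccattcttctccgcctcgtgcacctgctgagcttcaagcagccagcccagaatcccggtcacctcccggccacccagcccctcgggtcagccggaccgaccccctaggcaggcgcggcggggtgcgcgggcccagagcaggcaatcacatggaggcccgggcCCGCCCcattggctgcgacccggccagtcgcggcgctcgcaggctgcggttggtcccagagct

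In windows of 300 bases, which run 50 bases past the start, 8 of the 9 members had 10 windows in the RefSeq table. All 10 had a GC content above the median window of the table, from 53% to 78% against a median of 52.7%. A GC box was in 9 of the 10 windows, against 35.7% of the 32851 windows of all genes. Those 9 windows covered all 8 members. The GC box consists of G and C alone, and its share among windows of like GC content was not computed. The CCAAT box (CCAAT) was in 3 windows, those of *Lrrc8b* and *Slc46a3* and the first of *Lrrc8d*, against 37.4% of all windows. The E-box CACGTG was in the window of *Lrrc8a* alone (7.15% of all). Neither the TATA box TATAAA (13.6% of all) nor the interferon response core GAAANNGAA (8.56% of all) was found in a member window. All motifs were searched on both strands. The windows of the 3 neighbours were alike in GC content, at 78% in *Lrrc8b*, 78% in *Lrrc8c* and 71.3% in the first window of *Lrrc8d*.

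SLC19A1 and SLC46A1 are folate carriers, and folate genes were described beside them. Of 18 folate genes with a mean of at least 10, 8 were at least 1.2-fold higher in Npffr1-KO and 1 was lower, against 16.8% and 15.6% of all genes, with a median log2 ratio of 0.26 that was 0.27 after centring on length. Among those higher were *Mthfd1* (638 in WT and 904 in Npffr1-KO), *Mthfd2* (366 and 513) and *Shmt1* (223 and 315), enzymes that load and convert one-carbon units on folate. *Aldh1l2*, a mitochondrial enzyme of the same pathway, was the lower gene with 180 and 137. *Fpgs*, whose product retains folate in the cell by adding glutamates, had 692 and 674. The log2 ratio of *Slc46a1*, 0.37, lay above the median of this list, and that of *Slc19a1*, 0.10, lay below it.

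The enzymes and sensors of the same ligand gave no common direction. Of 8 genes, 2 were at least 1.2-fold higher in Npffr1-KO and 2 were lower, against the same 16.8% and 15.6%, with a median log2 ratio of 0.10. *Sting1* (listed as *Tmem173*) had 1388 in WT and 1694 in Npffr1-KO, and *Ikbke*, a kinase downstream of it, had 855 and 1139. The lower genes were *Enpp1*, the main extracellular hydrolase of cGAMP, with 156 and 129, and its relative *Enpp3*, with 621 and 426. *Cgas* (listed as *Mb21d1*) had 222 and 236, a log2 ratio of 0.09 with an interval of -0.07 to 0.24.

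Of the other routes and relatives of the carriers, 5 genes had a mean of at least 10. Of these, 0 were at least 1.2-fold higher in Npffr1-KO and 1 was lower, against 16.8% and 15.6% of all genes. *Slc19a2* had 130 in WT and 151 in Npffr1-KO (log2 ratio 0.22). *Gja1*, which encodes a connexin of gap junctions, had 1571 and 1338 (log2 ratio -0.23), and *P2rx7*, an ATP-gated channel, had 638 and 594. *Slc46a2*, the remaining SLC46 gene, had 3 reads in all, each of them in Npffr1-KO library C. *Slc19a3*, a thiamine transporter and the lower gene, had 6, 21 and 12 reads in WT and 7, 9 and 11 in Npffr1-KO, which overlap. The LRRC8 channels belong to cell volume regulation. Of 8 genes of that process, 0 were at least 1.2-fold higher and 2 were lower, against the same 16.8% and 15.6%. The lower genes were *Slc12a2*, an importer of sodium, potassium and chloride, with 790 and 658, and the water channel *Aqp1*, with 10783 and 8321. The median log2 ratio of that list was -0.13, and -0.05 after centring on length.

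**Figure D5:**
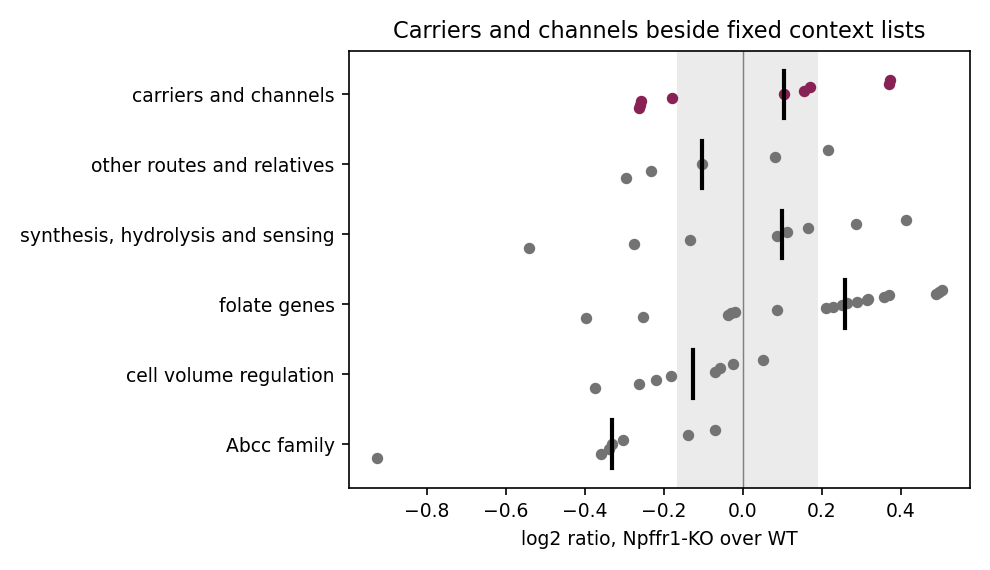
Log2 ratio of Npffr1-KO over WT for the carriers and channels (top row) and for each gene of 5 context lists whose mean reached 10 normalized counts. Bars mark the median of each list and the grey band the middle 50% of all genes. The median is 0.26 for folate genes and -0.33 for the *Abcc* family.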

How the data were processed

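Total RNA of 3 WT and 3 Npffr1-KO iAT samples was extracted by the submitters with TRIZOL and sequenced. The submitters' processing notes name Bowtie2, RSEM and DESeq2, while their versions, the build and the gene models are not given in sources used here. The deposited signal is a count normalized for library size by the authors, 1 value per genotype and gene, with 15 significant digits. Deposited columns with the authors' fold changes and p-values, and a second table of 90 genes selected by them, were not used.

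Log2 ratios were computed from the 2 values. Their 95% intervals took each genotype value as the mean of Poisson counts in 3 libraries. They are therefore centred on the moderated ratio and can miss the ratio of the reads. For *Abcc6* the interval was -1.66 to -0.19, and the log2 ratio of the mean reads recovered was -1.87. Genes with a mean of at least 10 formed the background. Whole reads per library were searched for means of up to 100 from 6 size factors, themselves read from single-read genes. Above a mean of 25 the search began with SDs up to the mean. The search and the fit were tested on simulated data. limma 3.58.1 (R 4.3.3, moderated, with trend) was fitted to log2(normalized reads + 1) over 2986 genes, with Benjamini-Hochberg adjustment. Whether the samples came from separate animals is not stated, so p-values measure the spread between samples. Groups came from the labels. Length centring subtracted the median of 1 of 20 length classes. Sequence sharing and exon overlap used GENCODE M21, and start regions RefSeq GRCm38.p6. All 9 members and every gene of the context lists could be named, and examples were taken from them. The members and lists were chosen with earlier results of these data known. Alternatives were other pseudocounts, thresholds, filters, scalings and leaving out each library.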

Additional observations from a re-analysis of the deposited data

How the results depend on the processing

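No paired analysis was possible because the table gives 1 value per genotype and the libraries could not be tied to the replicate numbers of the labels. Centring on genes of like length kept the direction of all 9 members' log2 ratios. The pseudocounts of 1 and 10 could not change a direction, since each was added to both values. Centring on the median gene moved every ratio by only 0.0082, less than the size of any member's ratio. The number of members past the threshold, 2 higher and 1 lower, was 4 and 4 at 1.1-fold and 0 and 0 at 1.5-fold. The lower count was 3 after centring on the median gene and 0 with a pseudocount of 10. The median percentile of the members' WT levels per kilobase, 60.6 among all genes, was 48.9 among genes with a mean of at least 10. In limma over recovered reads the number of genes with an adjusted p under 0.05, 0 in the fit reported, was 2 with a pseudocount of 4, 1 with scaling by library totals, 10 without a filter on low genes (of 7508 fitted) and 0 to 4 on leaving out a library, and in none of these was *Lrrc8b* or *Lrrc8e* among them. Adjusted p-values ran from 0.396 to 0.948 for *Lrrc8b* and from 0.680 to 0.989 for *Lrrc8e*. On leaving out each library the log2 difference ran from -0.58 to -0.058 for *Lrrc8b* and from -0.50 to 0.046 for *Lrrc8e*, which changed sign without Npffr1-KO library C. Depth limits *Lrrc8e*, with 76 reads in WT and 63 in Npffr1-KO over 3 libraries each, and the lack of values per library limits the 7 others. The cause of these shifts was not tested.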
